A study of Mus musculus with 6 samples.

Results

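The genes described here are 7 enzymes and regulators of sugar metabolism and of the response to low oxygen: Hif1a, Higd1a, Pdk1, Ldha, Pgk1, Pfkp and Tkt. They were followed in cell lines grown out of mouse mammary tumours driven by the ErbB2 oncogene, with and without the kinase gene Akt1. They were found as every probe set that the authors' deposited expression sheet labels with one of these symbols, which gave 9 probe sets out of 45037 on the array that are not controls. Hif1a and Tkt had 2 probe sets each and the other 5 genes had 1. The sheet carries a symbol only where the authors' own unadjusted p-value for knockout against wild type was under 0.05, so 5604 probe sets are named and every member was chosen on the contrast that is described below. In the authors' deposited table the p-values of the members ran from 0.00418 for a Tkt probe set to 0.0421 for a Hif1a probe set, the one nearest to that limit. Just beyond the limit no probe set has a symbol, so any further probe set of these genes stayed unnamed. The differences between genotypes are therefore a description of chosen members and are given without a test.

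The wild-type group, akt(+/+), held lines 31, 101 and 102, and the knockout group, akt(-/-), held lines 72, 75 and 116, with a single array each. All 6 lines came from tumours that arose spontaneously in mice in which ErbB2 is driven by the MMTV promoter of mouse mammary tumour virus, active mainly in mammary epithelium, and all were kept for 25 passages in medium with insulin and epidermal growth factor. Fibroblasts had been reduced by a short plating step. Mouse strain, animal age, the way Akt1 was deleted and the oxygen level of the cultures are not stated in the labels. Nor do the labels say whether each line came from its own animal. The spread between lines may therefore not measure variation between animals, and it may be partly technical. Expression is in the authors' deposited log2 units, in which 1 unit is a 2-fold difference, and every difference is knockout minus wild type.

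Cells break glucose down to pyruvate by glycolysis, and pyruvate is then either reduced to lactate or burned in mitochondria. The pentose phosphate pathway branches off from the upper part of glycolysis and yields NADPH and ribose. Hif1a encodes the oxygen-regulated subunit of the transcription factor HIF-1, whose protein is marked for destruction by prolyl hydroxylases and the von Hippel-Lindau protein when oxygen is present, and which switches on many glycolytic genes when oxygen is low. Signalling through phosphoinositide 3-kinase, Akt and mTOR is known to raise HIF-1 alpha protein and glucose use in tumour cells. The HIF-1 dimer binds a short core, ACGTG or GCGTG, in its target genes.

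The sequences before the start sites of the 4 members that were higher in the knockout lines, and of Hif1a itself, show how often these letters occur there. Each is the stretch of 250 bases before the first start that RefSeq lists for the gene (GRCm38.p6), on the strand of the gene, with matches to ACGTG or GCGTG on either strand in capitals. On the opposite strand these read CACGT and CACGC.
Ldha: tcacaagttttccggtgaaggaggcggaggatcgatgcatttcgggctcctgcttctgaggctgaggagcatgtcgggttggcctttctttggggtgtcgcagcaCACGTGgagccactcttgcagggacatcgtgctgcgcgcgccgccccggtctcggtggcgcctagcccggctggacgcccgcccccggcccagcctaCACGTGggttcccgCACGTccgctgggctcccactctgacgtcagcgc
Pgk1: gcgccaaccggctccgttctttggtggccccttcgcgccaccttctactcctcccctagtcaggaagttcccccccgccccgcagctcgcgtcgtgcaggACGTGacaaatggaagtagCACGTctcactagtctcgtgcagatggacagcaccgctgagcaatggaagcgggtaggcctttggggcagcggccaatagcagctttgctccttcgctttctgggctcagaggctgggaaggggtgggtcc
Higd1a: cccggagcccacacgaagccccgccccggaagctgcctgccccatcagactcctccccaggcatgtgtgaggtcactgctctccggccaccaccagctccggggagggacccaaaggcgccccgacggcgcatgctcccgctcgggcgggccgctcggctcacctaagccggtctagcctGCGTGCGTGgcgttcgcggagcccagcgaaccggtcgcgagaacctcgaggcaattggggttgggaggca
Pdk1: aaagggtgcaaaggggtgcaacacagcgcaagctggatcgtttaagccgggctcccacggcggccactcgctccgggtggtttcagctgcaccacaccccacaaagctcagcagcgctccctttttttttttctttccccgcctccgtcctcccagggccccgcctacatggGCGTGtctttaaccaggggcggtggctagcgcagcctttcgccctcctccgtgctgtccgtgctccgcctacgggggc
Hif1a: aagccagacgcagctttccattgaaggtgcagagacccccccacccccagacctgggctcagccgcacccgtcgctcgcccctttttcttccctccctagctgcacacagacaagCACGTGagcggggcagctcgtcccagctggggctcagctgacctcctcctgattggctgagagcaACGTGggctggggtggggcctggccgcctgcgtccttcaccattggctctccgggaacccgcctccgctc

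These windows lie at chr7:46845554-46845803 (plus strand) for Ldha, chrX:106186850-106187099 (plus) for Pgk1, chr9:121857797-121858046 (minus) for Higd1a, chr2:71872974-71873223 (plus) for Pdk1 and chr12:73907617-73907866 (plus) for Hif1a. The Ldha window held 5 matches at 3 separate places, since the palindrome CACGTG, the E-box bound by MYC and related factors, is read as a match on both strands and occurs 2 times there. The Hif1a window held 3 matches at 2 places, 1 of them such an E-box. Pgk1 and Higd1a held 2 matches each and Pdk1 held 1, a GCGTG starting 78 bases before the start. The members that were lower in the knockout lines had matches as well, 3 in the window of Pfkp and 1 in that of Tkt. Over all 32851 RefSeq windows of the same length 38.6% held at least 1 match. At least as many as Ldha, the member with the most, were held by 1.01%. The same share was 6.58% for Hif1a and for Pfkp, 16.7% for Pgk1 and for Higd1a, and 38.6% for Pdk1 and for Tkt. The RefSeq windows were taken whatever their base composition. A second listed start of Ldha had 1 match, and a second start of Pdk1 had none. These are matches of letters only, found on both sides of the expression difference.

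Akt1 itself, the check of the labels, was 42.8-fold lower in the knockout lines for its brighter probe set, at 9.94 ± 0.20 log2 units in wild type and 4.53 ± 0.13 in knockout (SD, n = 3 each; limma adjusted p = 0.000405). Array medians lay between 5.41 and 5.50 log2 units. Over all probe sets the median difference was 0.026 log2 units, and over those with a symbol it was -0.27. Of the epithelial markers, 6 of 12 had a symbol, 4 higher and 2 lower in the knockout lines. By the brightest named probe set of each gene, Cldn3, Grhl2, Epcam and Krt8 differed by 1.67, 0.90, 0.80 and 0.31 log2 units. Cdh1 and Cldn7 differed by -0.70 and -0.48. A second Grhl2 probe set differed by -0.46, so the probe sets of Grhl2 disagree in direction. The keratin gene Krt8 was the brightest, at 12.41 ± 0.09 in wild type and 12.72 ± 0.12 in knockout (SD, n = 3 each). None of 12 fibroblast markers had a symbol, which does not show whether such cells were present. Of the other marker lists, 1 of 8 endothelial, 3 of 10 leukocyte, 1 of 8 adipocyte and 1 of 8 myoepithelial genes had a symbol. Endothelial Plvap differed by -1.40, from 9.53 ± 0.72 in wild type to 8.13 ± 0.27 in knockout (SD, n = 3 each). The leukocyte genes Laptm5, Coro1a and Cd8a differed by -0.79, -0.69 and 0.87, adipocyte Lipe by -0.62 and myoepithelial Krt5 by 0.60. None of these 12 marker genes passed over all probe sets (limma). Of the 12, 11 had an unadjusted p under 0.05 (limma), against 15.4% of all probe sets. That count follows largely from the symbols, which stand only where the authors' p-value was under 0.05. The part of these markers in the results below was not tested.

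The members split in direction. Higd1a, Pdk1, Ldha and Pgk1 were higher in the knockout lines, and Hif1a, Pfkp and Tkt were lower. In RNA from whole cultures, fewer cells of a type and less RNA per cell cannot be told apart. None of the 9 probe sets passed an adjusted p under 0.05 over the whole array (limma), a limit that 48 of 45037 probe sets or 0.107% passed, and 7 of the 9 had an unadjusted p under 0.05, as did 15.4% of all probe sets. The count of 48 became 327 without knockout line 75, 2 without wild-type line 31 and 1 without any other line. A difference of 2-fold or more, together with an unadjusted p under 0.05, was seen in 4 members, against 2.8% of all probe sets (1263, or 2094 without line 75). Both member counts at an unadjusted p under 0.05 follow largely from how the members were chosen. In all 9 the wild-type and knockout lines did not overlap, as in 21.9% of all probe sets, and this follows from how the members were chosen. The median difference of the 9 was -0.23 log2 units, close to that of all named probe sets. That median is the value of the dimmer Hif1a probe set. By the brightest probe set of each of the 7 genes the median was 0.27, with 4 higher and 3 lower.

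**Figure D1:**
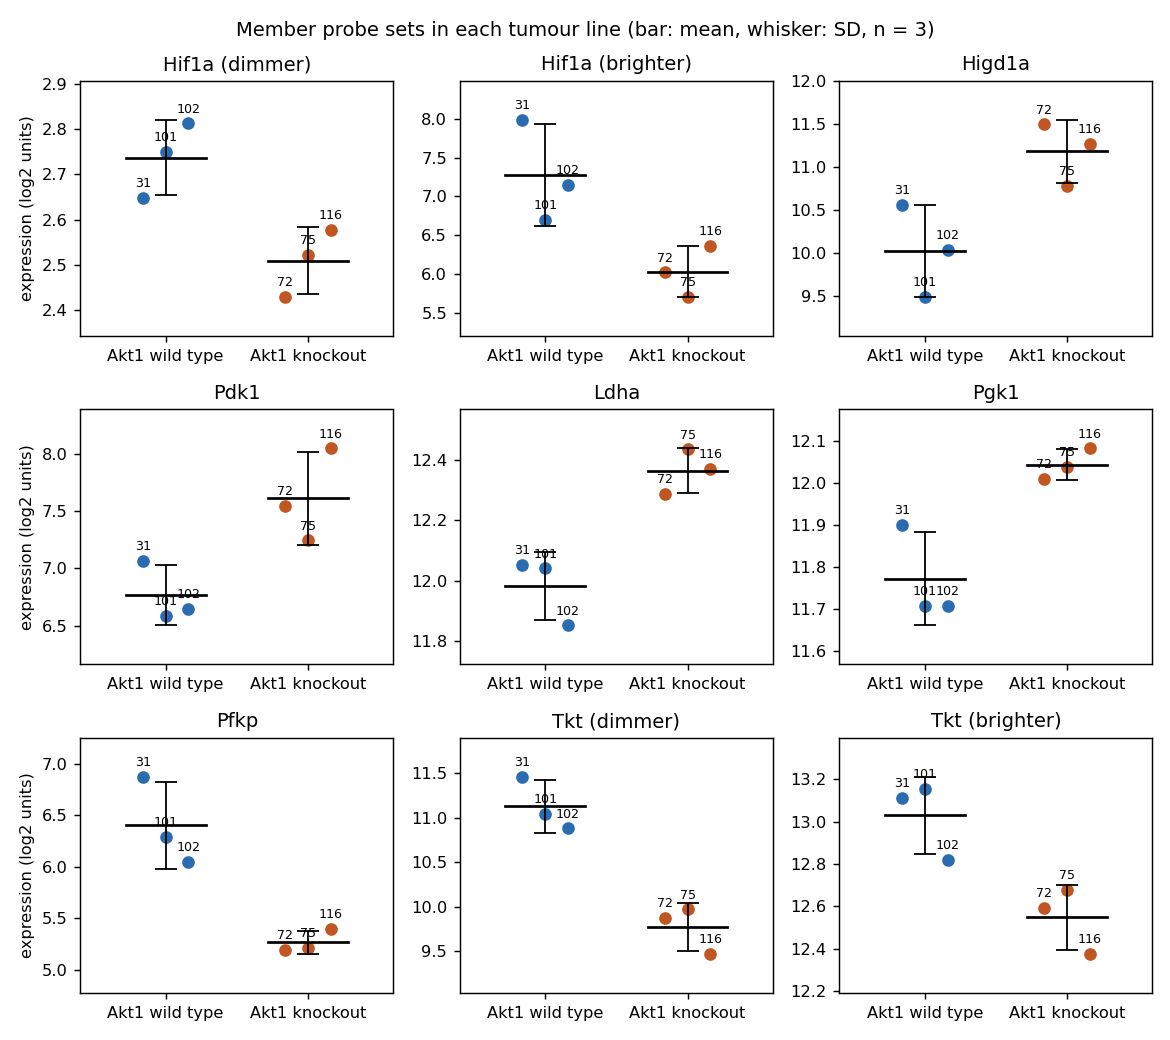
Expression of the 9 member probe sets in each line, in log2 units on the vertical axes (each panel has its own scale); points are single arrays labelled by line number, bars are group means and whiskers SD (n = 3). In each panel every knockout line lies on one side of every wild-type line, and the separation is widest for the dimmer Tkt probe set, where 0.91 log2 units lie between the nearest lines.

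Hif1a was lower in the knockout lines at both of its probe sets. The brighter one (1448183_a_at) read 7.98 in line 31, 6.69 in line 101 and 7.15 in line 102 of the wild type, and 6.02 in line 72, 5.71 in line 75 and 6.36 in line 116 of the knockout. The wild-type lines were widely spread, and line 101 lay only 0.33 log2 units above knockout line 116. The means were 7.27 ± 0.65 and 6.03 ± 0.33 (SD, n = 3 each), a 2.37-fold lower level with a difference of -1.24 ± 0.35 (limma standard error). The other probe set (1457231_at) was dim, at 2.74 ± 0.08 in wild type and 2.51 ± 0.07 in knockout, under the lower quartile of each array, which was 3.71 to 3.81. Its difference was -0.23 ± 0.12. Hif1a is also the member that appears in the authors' deposited pathway sheet, under mTOR signalling, with a signed fold of -2.37 and a pathway p of 0.0341 in the authors' deposited table.

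Higd1a, which encodes a small hypoxia-inducible protein of the inner mitochondrial membrane, had the largest difference among the members that were higher. Its probe set (1416480_a_at) read 10.56, 9.49 and 10.04 in wild-type lines 31, 101 and 102, and 11.50, 10.78 and 11.27 in knockout lines 72, 75 and 116. Knockout line 75 was the lowest of its group and lay 0.22 above wild-type line 31, the highest of the other group. The means were 10.03 ± 0.54 and 11.18 ± 0.37 (SD, n = 3 each), a 2.23-fold higher level with a difference of 1.16 ± 0.31 (limma standard error).

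Pdk1 encodes pyruvate dehydrogenase kinase 1, which holds pyruvate back from mitochondrial oxidation; it is a different gene from Pdpk1, the kinase upstream of Akt. It read 7.06, 6.58 and 6.64 in wild-type lines 31, 101 and 102, and 7.54, 7.24 and 8.05 in knockout lines 72, 75 and 116. The knockout lines were the more spread out, with line 116 well above the others. The difference was 0.85 ± 0.24 (limma standard error), or 1.80-fold, between 6.76 ± 0.26 and 7.61 ± 0.41 (SD, n = 3 each).

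The glycolytic enzymes Ldha and Pgk1 lay above 99.1% and 98.7% of the array's probe sets in signal and had smaller differences. Ldha, which converts pyruvate to lactate, read 12.05, 12.04 and 11.85 in wild-type lines 31, 101 and 102, and 12.29, 12.43 and 12.37 in knockout lines 72, 75 and 116. Its level was 1.30-fold higher in the knockout lines, a difference of 0.38 ± 0.13 (limma standard error). Pgk1, which makes ATP in the later steps of glycolysis, read 11.90, 11.71 and 11.71 in the same wild-type lines, and 12.01, 12.04 and 12.08 in the knockout lines. Its difference was 0.27 ± 0.12, or 1.21-fold, and the nearest lines of the 2 genotypes were 0.11 log2 units apart. The Pgk1 identifier (1439435_x_at) has the suffix that marks probes able to bind other transcripts, and Pgk1 has processed copies elsewhere in the genome, so this small difference may include signal that is not from Pgk1.

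Pfkp, the platelet-type phosphofructokinase that commits sugar to glycolysis, went the other way. It read 6.87, 6.29 and 6.05 in wild-type lines 31, 101 and 102, and 5.19, 5.21 and 5.40 in knockout lines 72, 75 and 116. The knockout lines lay close together and 0.65 log2 units below the lowest wild-type line. The means were 6.41 ± 0.42 and 5.27 ± 0.11 (SD, n = 3 each), a 2.20-fold lower level with a difference of -1.14 ± 0.23 (limma standard error).

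Tkt, which encodes transketolase of the non-oxidative pentose phosphate pathway, was lower at both probe sets but to a different extent. The dimmer one (1451015_at) read 11.46, 11.04 and 10.88 in wild-type lines 31, 101 and 102, and 9.87, 9.97 and 9.47 in knockout lines 72, 75 and 116. Its difference of -1.36 ± 0.21 (limma standard error), a 2.56-fold lower level, was the largest of all members. The brighter one (1439443_x_at) read 13.11, 13.15 and 12.82 against 12.59, 12.68 and 12.38, a difference of -0.48 ± 0.15 or 1.40-fold. The gap between the 2 Tkt probe sets was 1.65, 2.11 and 1.94 log2 units in wild-type lines 31, 101 and 102 and 2.72, 2.71 and 2.91 in knockout lines 72, 75 and 116, so it was 0.88 wider in the knockout lines. The brighter probe set has the suffix for probes that may bind other transcripts, and it lies above 99.6% of the array in signal. Both probe sets place Tkt lower in the knockout lines, with sizes that disagree.

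**Figure D2:**
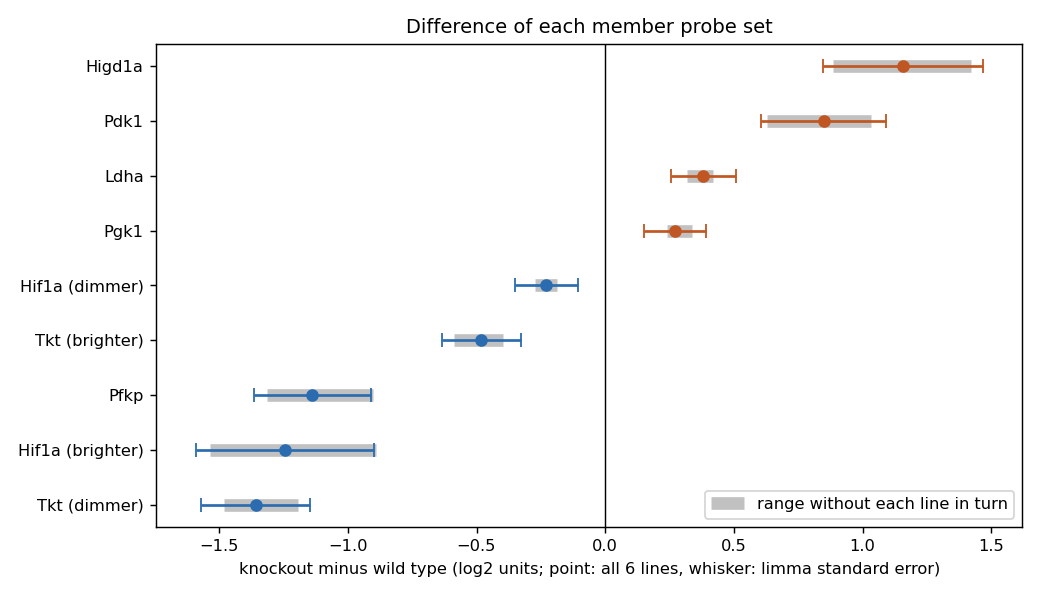
Knockout minus wild type in log2 units for each member probe set; points use all 6 lines, whiskers are limma standard errors and grey bands are the range when each line is left out in turn. The 4 higher and 5 lower probe sets keep their sides, and the widest band is that of the brighter Hif1a probe set, from -1.53 to -0.89.

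Within a genotype, the lines highest and lowest in the brighter Hif1a probe set were mostly those highest and lowest in Pdk1 and Higd1a. Among the wild-type lines Hif1a (brighter probe set), Pdk1 and Higd1a were all highest in line 31 and lowest in line 101. Among the knockout lines all 3 were lowest in line 75, with Hif1a and Pdk1 highest in line 116 and Higd1a highest in line 72. Line 31 exceeded its genotype's mean by 0.71 log2 units for Hif1a, 0.53 for Higd1a and 0.30 for Pdk1, and line 75 differed from its own mean by -0.32, -0.40 and -0.37. Between genotypes the direction was the opposite, with Hif1a lower and the other 2 higher without Akt1. The dim Hif1a probe set did not share this order, since line 31 was the lowest wild-type line there and line 72 the lowest knockout line. With 3 lines on each side this is a description of 6 arrays and no test was made of it. Pgk1 was also highest in lines 31 and 116, with wild-type lines 101 and 102 almost level and line 72 the lowest knockout line. Pfkp, too, was highest in lines 31 and 116, while the brighter Tkt probe set was highest in lines 101 and 75. The dimmer Tkt probe set was highest in lines 31 and 75.

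**Figure D3:**
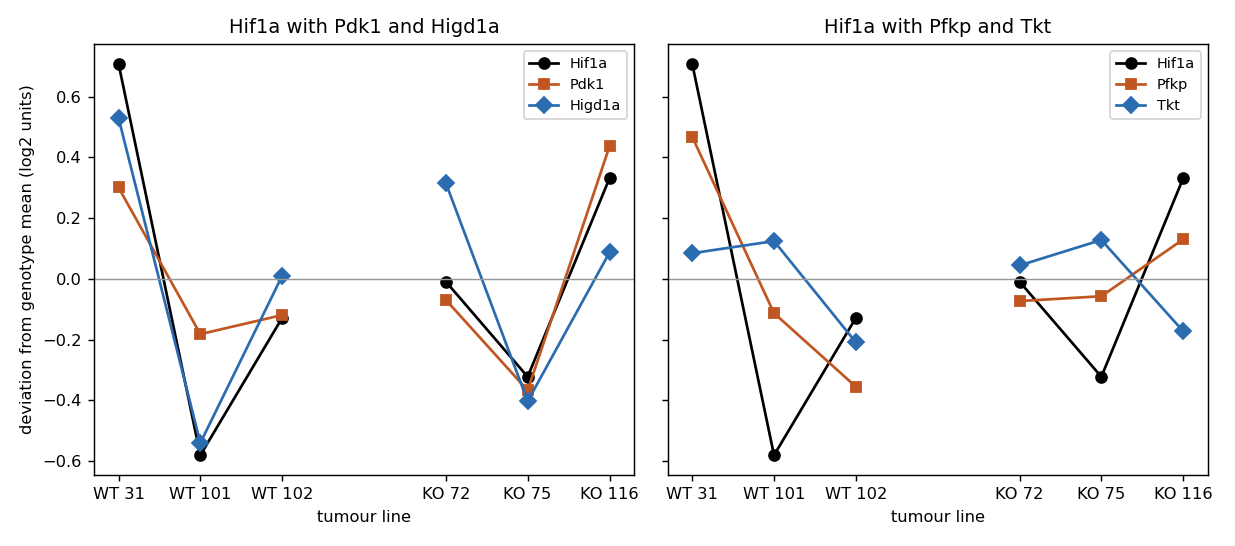
Deviation of each line from the mean of its own genotype, in log2 units, for Hif1a with Pdk1 and Higd1a (left) and with Pfkp and Tkt (right), using the brighter probe set of Hif1a and Tkt; WT is wild type, KO is knockout, and lines join points of a genotype only to guide the eye. Hif1a, Pdk1 and Higd1a are highest in wild-type line 31 and lowest in lines 101 and 75, whereas the brighter Tkt probe set is not.

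Line 31 stood out among the wild-type lines, with the highest value in 7 of the 9 member probe sets, where it was the highest wild-type line in 32.2% of all probe sets. Without it the difference of Hif1a shrank to -0.89, that of Pfkp to -0.90 and that of the dimmer Tkt probe set to -1.19, and that of Higd1a grew to 1.42. Without line 101 the differences of Hif1a and Higd1a were -1.53 and 0.89. No line left out changed the direction of a member.

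Other genes of these pathways give the setting. Of 113 genes on 6 lists for glucose transport, glycolysis, pyruvate entry, the pentose phosphate pathway, oxygen sensing and HIF targets, 25 had a symbol, 14 higher and 11 lower in the knockout lines. Leaving the members aside, 18 remained, 10 higher and 8 lower, and 1 of the 25 passed over all probe sets (limma). Because symbols exist only where the authors' p-value was under 0.05, these counts say nothing of the 88 genes without one.

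Of 27 glycolytic enzymes 7 were named, 5 higher and 2 lower. Beside the members, the hexokinase gene Hk3 was 1.67-fold higher, a difference of 0.74 ± 0.17 (limma standard error), and Pklr, the pyruvate kinase of liver and red cells, was 0.31 higher. Ldhc, the lactate dehydrogenase known from testis, was 0.30 higher and dim, and Bpgm, which makes bisphosphoglycerate, differed by -0.33. None of these passed over all probe sets (limma). An unadjusted p under 0.05 was seen in 3 of the 7, against 15.4% of all probe sets, a count that partly follows from how symbols were given. Of 9 transporters only Slc2a8, an intracellular hexose transporter, was named, with a difference of -0.33. At the entry of pyruvate into mitochondria, Mpc2 (deposited as Brp44), a subunit of the pyruvate carrier, was 0.53 higher, and Dlat, the acetyltransferase subunit of pyruvate dehydrogenase, differed by -0.21. In the pentose phosphate pathway 2 of 13 genes were named, Tkt and the epimerase gene Rpe, which differed by -0.50 between 6.40 ± 0.25 in wild type and 5.90 ± 0.13 in knockout, so both were lower.

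Of 45 HIF target genes 6 were named, and each was higher without Akt1 by its brightest named probe set. Gapdh, which is on the list, is not among the 6, because its symbols stand only on control probe sets, described further on. The middle and 5' control probe sets of Gapdh, which carry the symbol, were both lower without overlap. Its 3' control probe set, which carries none, was level. The median difference of the 6 was 0.61 log2 units. Over all probe sets with a symbol 46.3% were higher. Members and lists were chosen with earlier results of these data known, so the shared direction of the 6 is only described. Of the 6, 4 are members, and the others are Hmox1, the haem-degrading enzyme, at 8.02 ± 0.17 against 6.85 ± 0.58 (SD, n = 3 each), and the carbonic anhydrase gene Car12, which was dim and 0.37 higher. None of the 6 passed over all probe sets (limma), and 5 had an unadjusted p under 0.05, against 15.4% of all probe sets. That count of 5 follows largely from the symbols, which stand only where the authors' p-value was under 0.05. Hmox1 also responds to oxidative stress by way of NRF2. The 39 targets without a symbol include the widely used Vegfa, Car9, Slc2a1 and Bnip3, which were not analysed here.

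Of 17 genes for HIF subunits and oxygen sensing 9 were named, 4 higher and 5 lower. Crebbp, a histone acetyltransferase and HIF coactivator, was the one that passed, and fell by 1.79 log2 units (limma adjusted p = 0.0398), and its other probe sets differed by -1.93 and -0.16. That call was lost with median centring and when line 31, 101, 102, 72 or 116 was left out (limma adjusted p from 0.0362 to 0.18 over 11 alternatives), while the difference stayed between -1.92 and -1.67. The prolyl hydroxylase gene Egln2 differed by -0.68, and Vhl (deposited as Vhlh), which targets the HIF alpha protein for destruction, differed by -0.49. Cul2, the cullin of the same ubiquitin ligase, was 0.75 higher. By the brightest probe set of each gene, the other 4 beside Hif1a lay between -0.34 and 0.43. Second probe sets of Eloc and Rbx1 differed by 0.76 and -0.35, so the probe sets of Rbx1 disagree in direction.

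**Figure D4:**
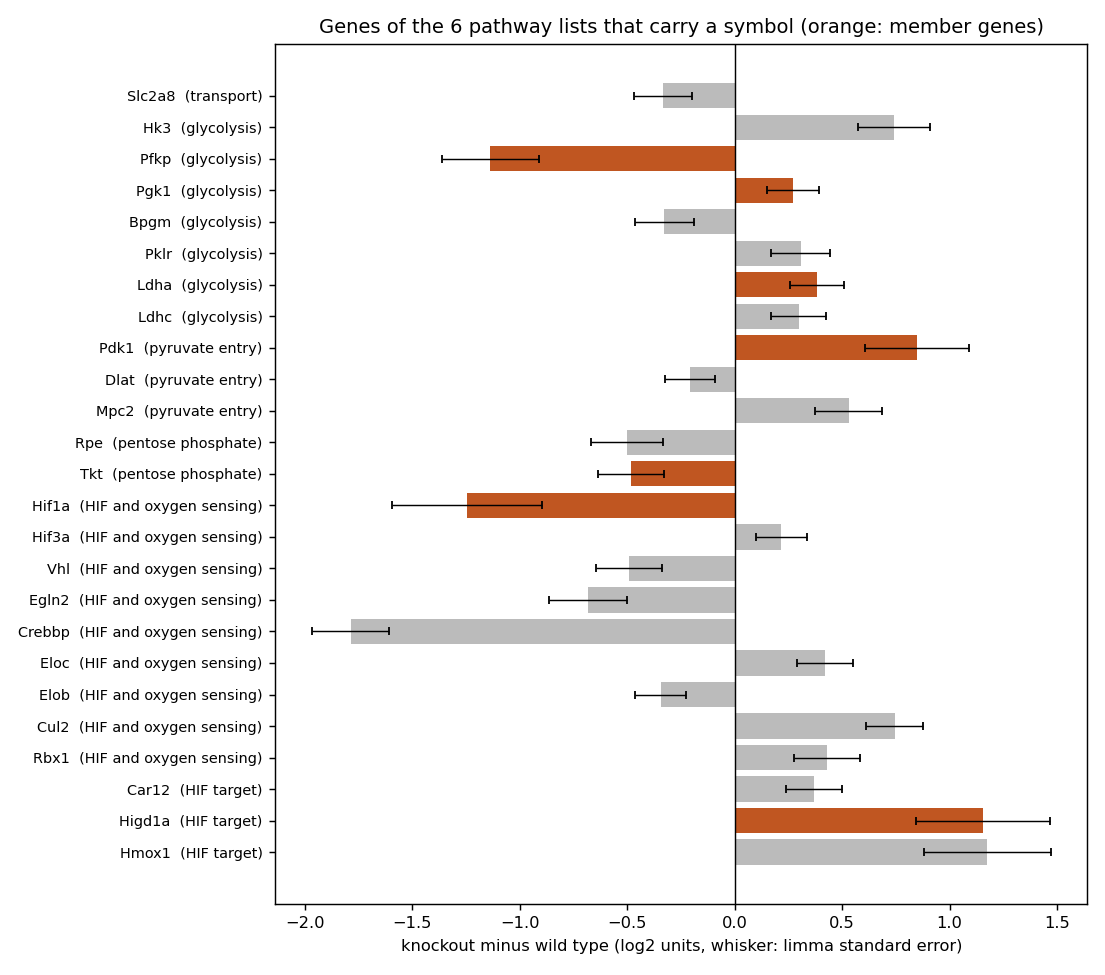
Knockout minus wild type in log2 units for the 25 genes of the 6 lists that carry a symbol, each by its brightest named probe set, with limma standard errors as whiskers; orange bars are member genes and grey bars are others. A gene on several lists is drawn once, under the first. The HIF targets lie to the right of 0, and Hif1a and both pentose phosphate genes to the left.

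Control probe sets named for Gapdh and pyruvate carboxylase extend the picture, because their names do not depend on a p-value. The 3' probe set of Gapdh, a glycolytic enzyme and known HIF target, read 13.00, 12.08 and 12.67 in wild-type lines 31, 101 and 102, and 12.85, 12.08 and 12.70 in knockout lines 72, 75 and 116. The groups overlapped, with a difference of -0.044 (exact two-sided permutation p = 0.9, adjusted 0.9 over 19 such comparisons; 0.1 is the smallest p possible with 3 against 3). Within each genotype the order of its lines was that of Higd1a, with line 101 and line 75 lowest. The middle and 5' probe sets of Gapdh were lower in the knockout lines by 1.97-fold and 1.73-fold, without overlap (exact permutation p = 0.1 for each, adjusted 0.173). Of the 4 pyruvate carboxylase control probe sets, 2 were lower without overlap (2.59-fold and 2.14-fold; exact permutation p = 0.1, adjusted 0.173) and 2 overlapped. The 3' probe set of the transferrin receptor, another HIF target, read 6.27, 6.49 and 6.74 in the wild-type lines and 7.83, 6.41 and 7.26 in the knockout lines, which overlapped (exact permutation p = 0.3, adjusted 0.38).

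The gap between the ends of control transcripts differed between genotypes, in a direction that was not the same for every control. The 3' signal of Gapdh exceeded the middle signal by 1.18, 1.06 and 1.30 log2 units in wild-type lines 31, 101 and 102, and by 2.07, 1.80 and 2.48 in knockout lines 72, 75 and 116 (exact permutation p = 0.1, adjusted 0.173). Over the 5' signal it was 3.30, 2.07 and 2.95 in the wild-type and 3.50, 3.18 and 3.89 in the knockout lines, which overlapped (exact permutation p = 0.2, adjusted 0.292). The gap of Actb between its 3' and 5' ends was wider in the knockout lines, 3.48 ± 0.05 against 3.05 ± 0.22 (SD, n = 3 each; exact permutation p = 0.1, adjusted 0.173). For pyruvate carboxylase the gap between the 3' and 5' ends was narrower in every knockout line, 2.92 ± 0.48 against 4.30 ± 0.46 (exact permutation p = 0.1, adjusted 0.173, n = 3 each). Its 5' probe set was level, at 4.85 in wild type and 4.87 in knockout, under the median of each array. The narrower gap therefore came from the 3' probe set, at 9.15 in wild type and 7.78 in knockout. For the transferrin receptor, whose 5' probe set was dim, the gap overlapped between genotypes (exact permutation p = 0.3, adjusted 0.38). The bioC spike-in control was lower in every knockout line, at 7.62 to 7.96 against 8.95 to 9.25 in wild type, an average difference of -1.27. This difference between arrays ran along with genotype, and its part in the differences of the members was not tested. Actb was 1.96-fold lower in the knockout arrays at its 3' end too, whereas Gapdh overlapped there. Where the probe sets of Hif1a, Pfkp and Tkt lie in their transcripts is not stated in the labels or the files, and the part of such gaps in their lower values, and in the unequal differences of the Tkt probe sets, was not tested.

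**Figure D5:**
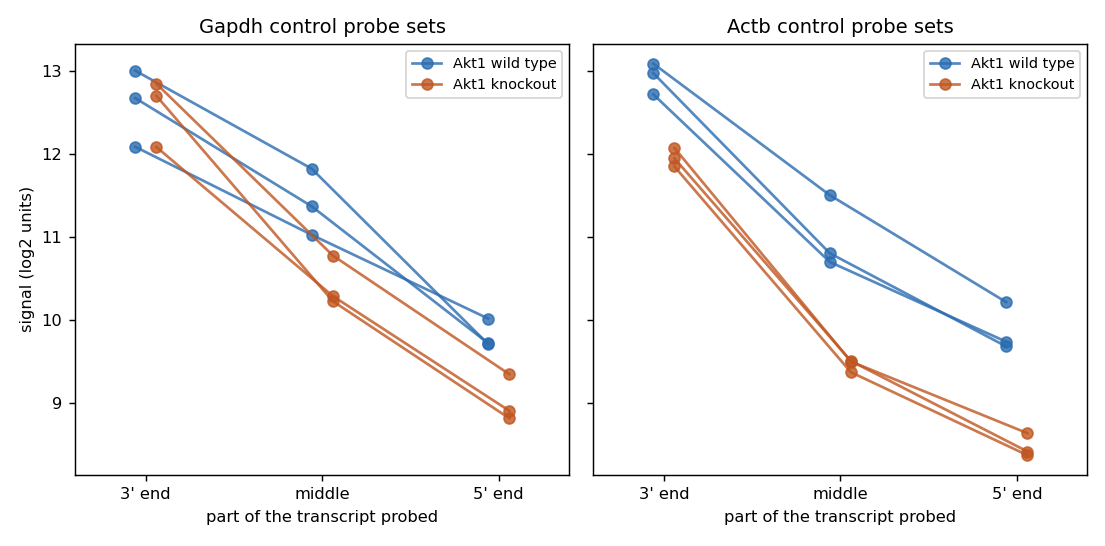
Signal of the control probe sets at the 3' end, middle and 5' end of Gapdh (left) and Actb (right) in log2 units, with a line for each array; blue is wild type and orange is knockout. At the 3' end of Gapdh the genotypes overlap around a mean of 12.5 to 12.6, and in its middle and at its 5' end every knockout array lies below every wild-type array.

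The named probe sets most like each member were found among 5603 others by the root mean square difference between profiles over the 6 arrays. Each profile was centred on its own mean. Probe sets of the same gene were passed over, as were updated names that end in Rik or are Gm with a number. For the brighter Hif1a probe set these were Leng4 at 0.15 log2 units and Ablim1 at 0.17. Higd1a was closest to Snhg16 (deposited under a clone name) at 0.16 and Cebpd at 0.17, and Pdk1 to Jmjd6 (deposited as Ptdsr) at 0.089 and D9Ertd720e at 0.092. Ldha was closest to Cdc73 and Cnot10, Pgk1 to Otud5 and C78515, Pfkp to Baz2a and Ppp1r12c, and Tkt to Sphk2 and Sptlc1, with values from 0.018 to 0.096. No member was among the 2 nearest of another. All of these genes were named on the same contrast, so likeness partly follows from that choice.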

How the data were processed

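RNA from 6 tumour cell lines was measured on an array per line after whole-transcript amplification of 50 ng, per the labels' protocols. The authors deposited log2 expression values, already on a common scale; no label or header names the scanner, the background correction, the summary method or the normalization. The authors also deposited an unadjusted p-value per probe set, and a signed fold score in a pathway sheet. Values were used as deposited.

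All 45037 probe sets that are not controls were fitted with limma 3.58.1 in R 4.3.3 (lmFit, eBayes, no covariate) with Benjamini-Hochberg adjustment over all of them; the fit was tested on simulated data. The precision is limited by 3 arrays per group, with a median standard error of 0.18 log2 units. Single control measures used exact permutation. Deposited symbols were updated through RefSeq (GRCm38.p6). Members and gene lists were chosen with earlier results of these data known. Named genes are all members, Akt1, up to 4 further genes per list by largest difference, and the 2 nearest profiles of each member; Krt8, Cldn7, Eloc and Rbx1 were added after their values were seen. Alternatives were median centring, quantile normalization, leaving out dim probe sets, an intensity trend, the series' value table, group medians and leaving out each line.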

Additional observations from a re-analysis of the deposited data

How the results depend on the processing

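All 9 member probe sets kept their direction under every alternative run for them, in 107 of 107 recomputed values. None of the 9 passed the adjusted threshold under any of the refits (limma). The dim Hif1a probe set had no value once dim probe sets were left out. The count of probe sets past the adjusted threshold over the whole array, 48 with all lines, ranged from 1 to 327 when each line was left out: 327 without knockout line 75, 2 without wild-type line 31 and 1 without any other line. With a difference of 2-fold or more and an unadjusted p under 0.05 the count ranged from 1184 to 2094, the highest without knockout line 75, against 1263 with all lines. The cause was not tested. Median centring moved the median difference of all probe sets from 0.026 to 0.066. No paired analysis was possible because the line numbers of the 2 genotypes are not shared.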
